A study of Mus musculus with 23 samples.

Results

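The low-fat control arm of an ageing and obesity study was sampled in a pair of batches, and the comparison described here set the 4 low-fat (LF) libraries of batch 1 against the 4 of batch 2. These 8 libraries, of 23 in the series, were taken by their labels alone, and every one carried both a batch and a replicate number. All came from colonic epithelium of male C57BL/6 mice (C57BL/6J in the methods) that ate a diet with 10% of its calories as fat for 43 weeks from 6 weeks of age, so strain, sex, diet and duration were shared and the batch was the only labelled difference. The other libraries came from mice fed 60% fat for the same 43 weeks (HF, 3 in each batch) or 60% fat for 15 weeks and then 10% fat for 28 weeks (HF-LF, 4 in batch 1 and 5 in batch 2). The sources used here do not say what a batch is. A cohort of animals, an extraction, a library preparation, a sequencing run and a time of day at collection therefore cannot be told apart. The methods state 5 mice per regimen while 8 LF libraries exist, so separate animals are not established for all of them, and the p-values measure the spread between these libraries.

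The colonic epithelium is a sheet renewed from stem cells at the crypt base, whose dividing daughters mature into absorptive colonocytes, mucus-making goblet cells and hormone-making enteroendocrine cells, with T lymphocytes lodged between them. Its cells run a circadian clock, in which Arntl (BMAL1) and its partners Clock or Npas2 switch on the Per and Cry repressors and the nuclear receptors Nr1d1 and Nr1d2, which act back on them. Many other genes of this tissue answer within a short time to handling, low oxygen, feeding or stress hormones. The epithelium was released from the whole colon with EDTA, and total RNA was sequenced after removal of ribosomal RNA, so RNAs without a poly(A) tail were read as well.

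Total counts on genes were 29.2 M to 36.2 M in batch 1 and 31.6 M to 44.1 M in batch 2 (M, 1000000), and did not differ by more than the spread between libraries (2-sided exact permutation test, p = 0.2, n = 4 and 4), although they did without LF batch 2 replicate 1 (exact permutation test, p = 0.0286). Epcam, the epithelial adhesion molecule, stood at 1952, 1665, 1523 and 1737 CPM in batch 1 and at 1569, 1851, 1734 and 2024 CPM in batch 2, and the label of epithelium held in all 8 libraries. Here and below, values are listed in the order of replicates 1 to 4 and CPM are counts per 1000000 after TMM scaling. Fold changes are those of batch 2 relative to batch 1 on the log2 scale, with the standard error (SE), from edgeR's quasi-likelihood test with Benjamini-Hochberg adjustment over all 14052 genes tested (n = 4 and 4). A gene is called higher or lower where its adjusted p is under 0.05 and its fold over 1.2. The first principal component held 52.5% of the variance and separated the batches. Along the second (22.3%), LF batch 1 replicate 3 lay lowest, and values without it are given where it moved a count or made the batches overlap.

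About 1 in 5 genes of control epithelium differed between the batches: 1343 genes were called higher in batch 2 (9.56% of those tested) and 1514 lower (10.8%), 20.3% together. For 25.2% of all genes tested the batches did not overlap in CPM, 12.4% with batch 2 higher and 12.9% with it lower. Many genes named below were picked by fold among called genes, which favours such separation, so their lack of overlap is a description. Most changes were moderate, since only 424 of the higher and 473 of the lower genes differed by over 1.5-fold, and 103 and 171 by over 2-fold. Among the 10 largest called rises at 5 CPM or more without overlap were 6 replication histone genes, and among the 10 such falls were 4 small nucleolar RNAs and the clock repressor Per2. Leaving out LF batch 1 replicate 2 reduced the counts to 773 higher and 1005 lower. Scaling by library totals alone gave 1807 higher and 1155 lower, and in no alternative was a gene called in the opposite direction.

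Genes of dividing cells were higher in batch 2. Of 20 genes of G2 phase and mitosis, all tested, 17 were called higher (85%, against 9.56% of all genes) and none lower. Their median log2 fold change was 1.01 against 0.00 for all genes tested. Ccnb2, a cyclin that drives entry into mitosis, stood at 8.28, 6.54, 14.7 and 6.68 CPM in batch 1 and at 24.2, 22.2, 23.04 and 22.01 CPM in batch 2 (log2 fold change 1.33 ± 0.21, adjusted p = 0.00191). Ube2c, which helps to destroy cyclins at the end of mitosis, stood at 6.52, 4.41, 9.45 and 5.29 CPM in batch 1 and at 17.5, 14.03, 17.5 and 14.3 CPM in batch 2 (log2 fold change 1.30 ± 0.20, adjusted p = 0.00141). Ccnb1, the main mitotic cyclin, stood at 7.37, 5.84, 12.04 and 6.11 CPM in batch 1 and at 21.6, 19.1, 20.01 and 16.4 CPM in batch 2 (log2 fold change 1.29 ± 0.20, adjusted p = 0.00157). For each of these genes every batch 2 library lay above every batch 1 library, as for 12.4% of all genes tested, and in batch 1 replicate 3 was the highest. Mki67, the gene of the Ki-67 proliferation antigen, stood at 107, 111, 228 and 99.4 CPM in batch 1 and at 259.6, 208, 229 and 187 CPM in batch 2, and here replicate 3 of batch 1 lay inside the range of batch 2 (log2 fold change 0.70 ± 0.23, adjusted p = 0.0491). Its call was lost when any of 7 of the 8 libraries was left out. Summed over the list, the level was 375, 342, 687 and 332 CPM in batch 1 and 875, 739, 799 and 728 CPM in batch 2. Without LF batch 1 replicate 3, all 20 genes were called higher, with a median of 1.29. In bulk samples more cells of a type and more RNA per cell cannot be told apart, here and for every cell type below.

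Genes of DNA synthesis were higher too, with a smaller median. Of 20 S phase genes, 14 were called higher (70%, against 9.56% of all genes) and none lower (median 0.52). Their summed level ranged from 395 to 520.0 CPM in batch 1 and 545 to 641 CPM in batch 2, without overlap. Without LF batch 1 replicate 2 the count of higher genes was 8. Rrm2, a subunit of the enzyme that makes deoxynucleotides, stood at 6.63, 5.53, 9.50 and 6.63 CPM in batch 1 and at 13.2, 12.3, 11.7 and 14.2 CPM in batch 2 (log2 fold change 0.86 ± 0.15, adjusted p = 0.00303). Chaf1b, of the complex that lays histones onto new DNA, stood at 5.29, 5.74, 7.15 and 7.74 CPM in batch 1 and at 11.5, 9.90, 11.6 and 12.3 CPM in batch 2 (log2 fold change 0.80 ± 0.13, adjusted p = 0.00236). Pbk, a mitotic kinase outside both lists and among the genes with the largest rises, stood at 5.78, 4.58, 6.93 and 5.06 CPM in batch 1 and at 13.96, 13.7, 13.8 and 15.5 CPM in batch 2 (log2 fold change 1.34 ± 0.13, adjusted p = 0.000228).

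The replication-dependent histones, which are made in S phase and mostly lack a poly(A) tail, rose together. Of 77 such loci, 19 had no count in any LF library and 57 were tested. Of these 52 were called higher (91.2%, against 9.56% of all genes) and none lower (median 0.94). This list was drawn up after values of these data had been seen, so its counts and the p-value below are descriptions. Hist1h1b, a linker histone, stood at 23.7, 21.1, 39.2 and 25.1 CPM in batch 1 and at 74.4, 57.9, 66.8 and 82.2 CPM in batch 2 (log2 fold change 1.37 ± 0.17, adjusted p = 0.000628). Hist1h4a, one of many genes that encode the same histone H4, stood at 9.05, 8.22, 9.67 and 9.60 CPM in batch 1 and at 30.6, 24.1, 23.6 and 27.9 CPM in batch 2 (log2 fold change 1.54 ± 0.10, adjusted p = 3.67e-05), and Hist1h2bm, an H2B gene, had a log2 fold change of 1.60. Replicate 3 was the highest batch 1 library for all 3. Since histone genes of a class are near copies of each other, the split of reads between single genes is uncertain. Together, histones took 0.151%, 0.134%, 0.154% and 0.146% of all counts in batch 1 and 0.272%, 0.232%, 0.251% and 0.285% in batch 2, with no overlap (exact permutation test, 2-sided, p = 0.0286, below which 4 against 4 libraries cannot go, and 0.0458 after adjustment over 8 such values).

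**Figure D1:**
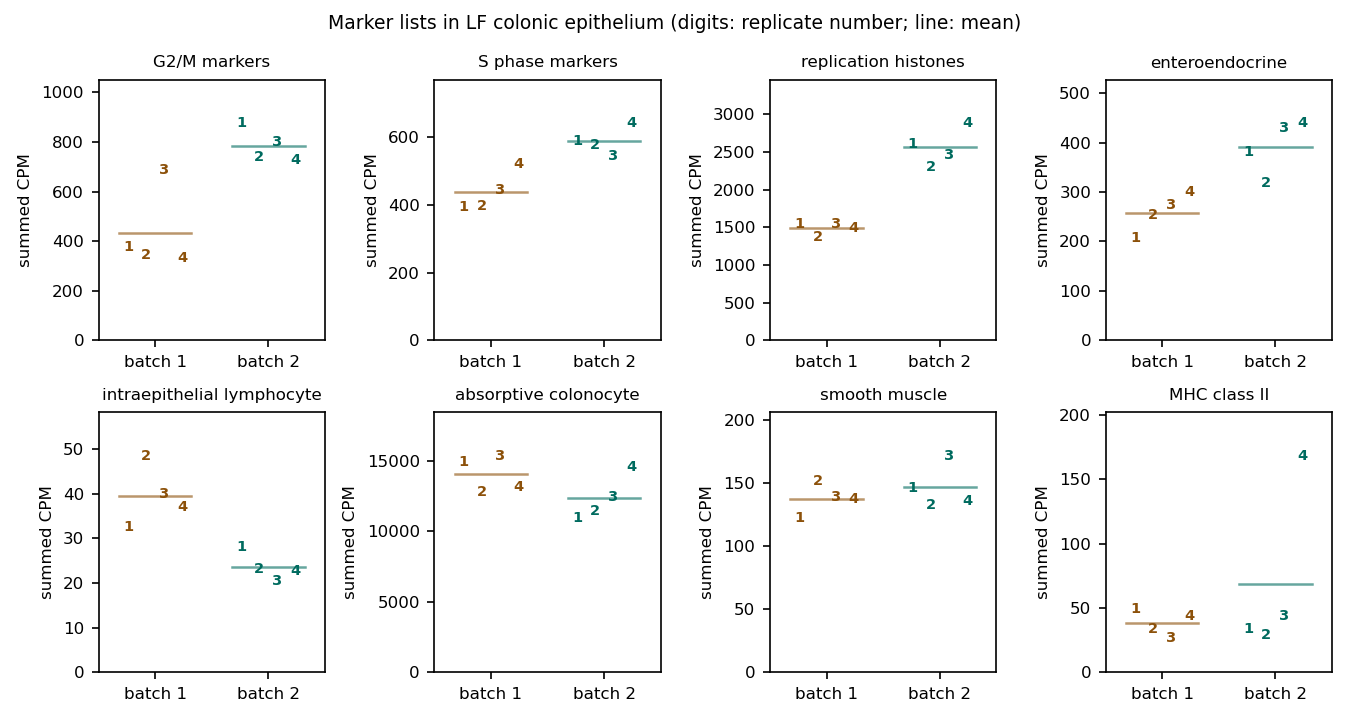
Summed level (CPM, linear axes) of 8 gene lists in each LF library, 1 panel per list, with batch 1 on the left and batch 2 on the right of each panel. Each digit is the replicate number of a library, and lines are batch means. The cell cycle, histone and enteroendocrine panels show batch 2 above batch 1, the intraepithelial lymphocyte panel shows it below, and in the G2/M panel batch 1 replicate 3 stands apart at 687 CPM.

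Stem cell and Wnt target genes gave few calls. Of 13 tested, 2 were called higher and none lower (median 0.23), against the 9.56% of all genes called higher. Ephb2, a receptor that positions cells along the crypt, stood at 92.2, 91.01, 112 and 94.7 CPM in batch 1 and at 133, 119.7, 125 and 119.9 CPM in batch 2 (log2 fold change 0.35 ± 0.08, adjusted p = 0.0109), and Axin2, a feedback target of Wnt signalling, had a log2 fold change of 0.39 with overlapping batches. Lgr5, the receptor that marks crypt base stem cells, stood at 14.3, 13.8, 20.4 and 14.3 CPM in batch 1 and at 25.6, 18.5, 18.1 and 22.5 CPM in batch 2 and missed the threshold (log2 fold change 0.43 ± 0.15, adjusted p = 0.056). Without LF batch 1 replicate 3, 6 genes of this list were called higher.

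Among mature lineages, enteroendocrine genes were higher and genes of surface colonocytes were lower more often than higher. Of 15 enteroendocrine genes 7 were called higher (46.7%, against 9.56% of all genes) and none lower (median 0.58). The summed level was 206, 253, 275 and 299.7 CPM in batch 1 and 381, 319, 429 and 439 CPM in batch 2. Chgb, a protein of secretory granules, stood at 56.4, 76.3, 80.3 and 88.8 CPM in batch 1 and at 124, 112, 146 and 159.6 CPM in batch 2 (log2 fold change 0.84 ± 0.14, adjusted p = 0.00236). Pyy, the satiety hormone peptide YY, stood at 17.8, 18.8, 19.8 and 19.6 CPM in batch 1 and at 30.1, 27.5, 34.4 and 35.5 CPM in batch 2 (log2 fold change 0.75 ± 0.09, adjusted p = 0.00054). Gcg, the precursor of GLP-1, stood at 15.2, 11.02, 18.1 and 23.3 CPM in batch 1 and at 33.7, 24.03, 32.2 and 32.5 CPM in batch 2 (log2 fold change 0.85 ± 0.19, adjusted p = 0.00908). No batch 2 library fell into the batch 1 range for these 3 genes. The other members called were Cck, Sct, Scg3 and Chga, at log2 fold changes from 0.50 to 0.72. Without LF batch 2 replicate 3, and likewise without replicate 4, the count was 4.

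Of 15 genes of absorptive colonocytes, 6 were called lower and 2 higher (median -0.15), against 10.8% and 9.56% of all genes. Slc26a3, which exchanges chloride for bicarbonate at the colon surface, stood at 1532, 1570, 1654 and 1503 CPM in batch 1 and at 674, 789.9, 871 and 1102 CPM in batch 2 (log2 fold change -0.86 ± 0.13, adjusted p = 0.00139). Slc9a3, the surface sodium and hydrogen exchanger, stood at 187, 189.6, 221 and 251 CPM in batch 1 and at 123, 97.8, 129.9 and 149.7 CPM in batch 2 (log2 fold change -0.76 ± 0.13, adjusted p = 0.00257). Batch 2 lay below batch 1 throughout for both transporters. Cyp2c55, a colonic cytochrome P450, had a log2 fold change of -0.64, with replicate 4 of batch 2 at 1329 CPM above replicate 2 of batch 1 at 1216 CPM. The water channel Aqp8 (-0.51), the carbonic anhydrase Car4 (-0.62) and Ceacam20 (-0.28) were also lower, while Sult1a1, a sulfotransferase (0.64), and Guca2b, the hormone uroguanylin (0.44), were higher. Car1, another carbonic anhydrase of this cell, stood at 4733, 3092, 4987 and 2919 CPM in batch 1 and at 3221, 3341, 3965 and 4795 CPM in batch 2 and missed the threshold (log2 fold change -0.04 ± 0.19, adjusted p = 0.903). Krt20, a keratin of mature epithelium, stood at 698, 614, 705 and 704 CPM in batch 1 and at 436, 415, 532 and 605 CPM in batch 2 (log2 fold change -0.45 ± 0.12, adjusted p = 0.0182). It belongs to a separate list of 11 epithelial genes, of which 1 was called lower and 1 higher (median -0.03). The gene called higher was Cdx2 (log2 fold change 0.33, edgeR, adjusted p = 0.0364), with the call lost when any of 5 libraries was left out.

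Goblet cell genes as a list were close to the background in calls, with 1 of 12 called higher and none lower. Their summed level, which includes the gene called, did not overlap between batches. It ranged from 25451 to 35019 CPM in batch 1 and from 36753 to 43038 CPM in batch 2. The gene called was Muc2, the main mucin of colonic mucus, at 8869, 11140, 19500 and 13390 CPM in batch 1 and at 23410, 18850, 26040 and 18970 CPM in batch 2 (log2 fold change 0.72 ± 0.22, adjusted p = 0.0338), and its batches overlapped through replicate 3 of batch 1, without which the log2 fold change was 0.97 (edgeR, adjusted p = 0.00257). Its call was lost when any of 5 of the 8 libraries was left out. None of 8 tuft cell genes was called. Of the transcription factors of gut position, Hoxd13 (-0.56) was the 1 of 8 distal and Hoxa2 (-0.41) the 1 of 15 anterior Hox genes called, both lower and both lost when any of 5 and 7 libraries was left out. Fabp6, a bile acid binding protein best known from the ileum, was the only 1 of 10 small intestinal genes called, and it was higher, at 9.70, 12, 6.46 and 13.4 CPM in batch 1 and at 50.7, 20.5, 31.2 and 42.5 CPM in batch 2 (log2 fold change 1.80 ± 0.27, adjusted p = 0.00138).

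Lymphocyte genes were lower in batch 2. Of 13 genes of intraepithelial lymphocytes 6 were called lower (46.2%, against 10.8% of all genes) and none higher (median -0.75). Their summed level was 32.6, 48.5, 39.8 and 36.99 CPM in batch 1 and 28.1, 23.1, 20.5 and 22.8 CPM in batch 2. Ptprc, the leukocyte antigen CD45, stood at 15.3, 19.9, 16.5 and 14.5 CPM in batch 1 and at 10.6, 8.73, 7.88 and 9.31 CPM in batch 2 (log2 fold change -0.86 ± 0.12, adjusted p = 0.00113). Cd3e, a chain of the T cell receptor complex, stood at 0.797, 1.47, 1.19 and 0.800 CPM in batch 1 and at 0.485, 0.389, 0.373 and 0.298 CPM in batch 2 (log2 fold change -1.46 ± 0.28, adjusted p = 0.00472). Gzma, a killing enzyme of T and NK cells, stood at 0.996, 2.20, 0.884 and 2.00 CPM in batch 1 and at 0.485, 0.365, 0.320 and 0.642 CPM in batch 2 (log2 fold change -1.72 ± 0.36, adjusted p = 0.00639). The batches did not overlap for these genes, but Cd3e and Gzma were under 3 CPM in every library. Cd8a (-0.85), Itgae (-0.79) and Nkg7 (-0.67) completed the called genes.

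Other cells that an epithelial release can carry over gave few calls. None of 10 smooth muscle genes was called, although their median was 0.92, and libraries of a batch differed widely. Myh11, the smooth muscle myosin heavy chain, stood at 0.797, 1.78, 4.42 and 5.71 CPM in batch 1 and at 10.8, 3.96, 16.3 and 2.82 CPM in batch 2 (log2 fold change 1.40 ± 0.60, adjusted p = 0.114). None of 10 fibroblast genes was called (median 0.40), and without LF batch 1 replicate 3 and LF batch 2 replicate 4 together 3 smooth muscle and 5 fibroblast genes were called higher. The single calls elsewhere were Esam of endothelium (0.69), Itgam of myeloid cells (0.43, lost when any of 7 libraries was left out), Lpl of adipocytes (-0.97) and Alas2 of red blood cells (-2.17, lost when any of 4 was). The 4 haemoglobin genes had no count in any LF library, which allows each a level of up to 3 counts per library, by counting error alone. These zeros do not show that red blood cells were absent. Alas2 of the same list had 0.160 to 3.64 CPM in the LF libraries, and how reads shared between similar genes were counted was not examined. All 7 tested genes of MHC class II had positive fold changes and none was called, with LF batch 2 replicate 4 at a summed 169 CPM against 28.99 to 43.98 CPM in the other 3 libraries of its batch.

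**Figure D2:**
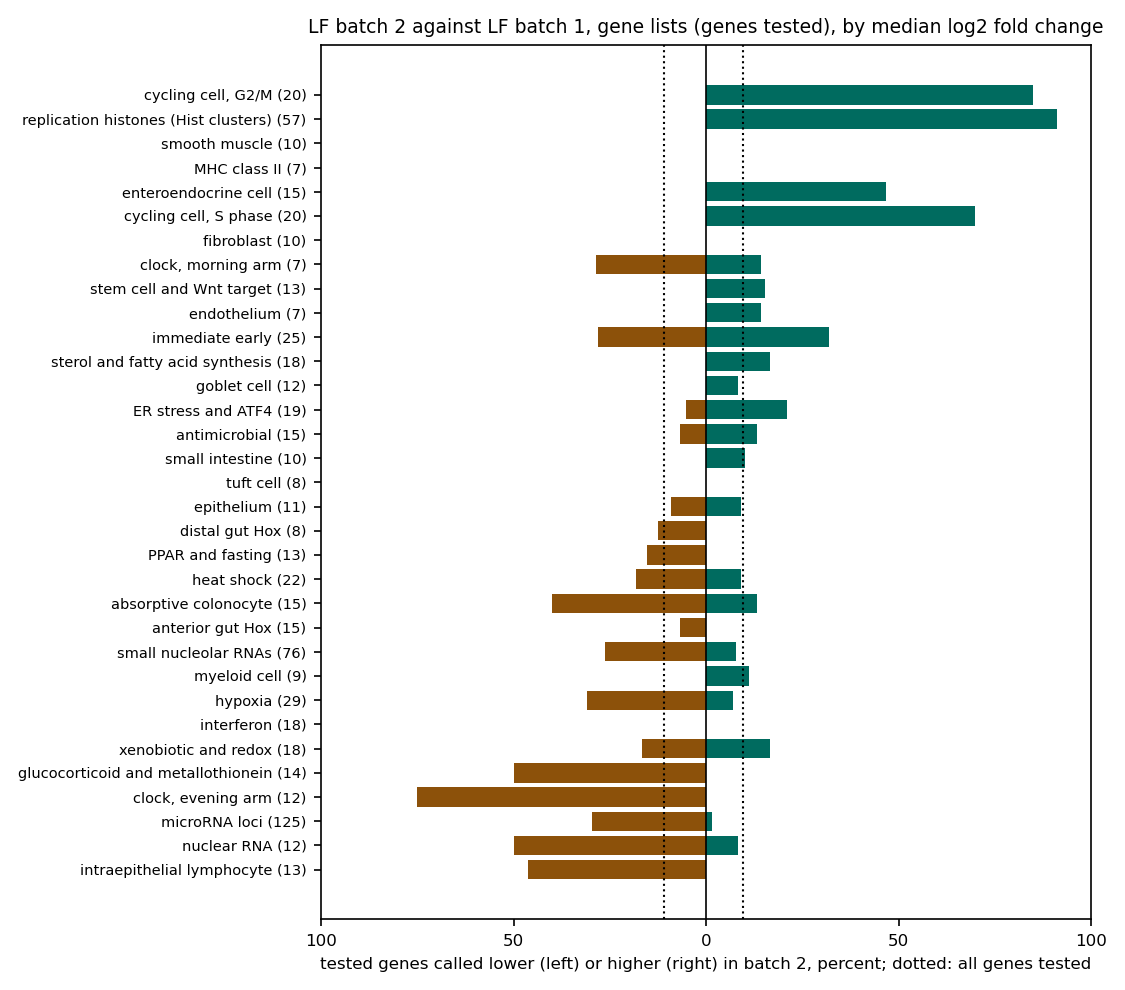
Percentage of the tested genes of each list called higher (right) or lower (left) in LF batch 2 than in batch 1, on a linear axis that starts at 0 in the middle. Lists are ordered by median log2 fold change, with the number of genes tested in brackets. The dotted lines mark the shares over all genes tested, 9.56% higher and 10.8% lower, and the G2/M, S phase and histone lists lie furthest to the right.

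Most clock genes with a late-day peak were lower in batch 2. Of 12 tested genes whose RNA is known to peak late in the day in peripheral tissue, 9 were called lower and none higher (median -0.52), against 10.8% of all genes called lower. Per2, a core repressor, stood at 139.8, 247, 236 and 262 CPM in batch 1 and at 66.99, 57.8, 91.5 and 105 CPM in batch 2 (log2 fold change -1.46 ± 0.21, adjusted p = 0.00117). Cry2, its partner, stood at 73.6, 97.5, 79.5 and 74.3 CPM in batch 1 and at 39.1, 41.05, 47.5 and 46.7 CPM in batch 2 (log2 fold change -0.90 ± 0.10, adjusted p = 0.00039). Ciart, a repressor of BMAL1 activity, stood at 25.9, 24.8, 18.7 and 20.5 CPM in batch 1 and at 8.92, 10.2, 13.4 and 16.6 CPM in batch 2 (log2 fold change -0.87 ± 0.18, adjusted p = 0.00615). For these 3 genes all batch 2 libraries lay below all batch 1 libraries, by the widest relative margin for Cry2, whose lowest batch 1 value of 73.6 CPM compared with a highest batch 2 value of 47.5 CPM. Per1, the other fast-responding Period gene, stood at 102, 144, 121 and 108 CPM in batch 1 and at 82.5, 80.6, 87.7 and 98.2 CPM in batch 2 (log2 fold change -0.44 ± 0.11, adjusted p = 0.0134). Dbp, an output transcription factor, stood at 143, 165, 112 and 119 CPM in batch 1 and at 80.7, 86.8, 97.4 and 116 CPM in batch 2 (log2 fold change -0.50 ± 0.14, adjusted p = 0.022), with replicate 4 of batch 2 inside the batch 1 range and the call lost when any of 4 libraries was left out. Per3 (-0.74), Usp2 (-0.71), Tef (-0.55) and Nr1d2 (-0.45) were the others called lower. Cry2, Ciart and Dbp overlap another locus on the opposite strand, and whether the counting used strand is not stated in the sources used here.

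Genes of the opposite phase did not move as a group. Of 7 tested, 1 was called higher and 2 lower, and the other 4 were not called (median 0.24). Npas2, a partner of BMAL1, stood at 11.01, 11.8, 13.8 and 7.43 CPM in batch 1 and at 24.1, 20.4, 17 and 12.8 CPM in batch 2 (log2 fold change 0.75 ± 0.21, adjusted p = 0.023), with the call lost when any of 3 libraries was left out. Cry1, the late-acting cryptochrome, stood at 22.5, 34.2, 30.3 and 47.1 CPM in batch 1 and at 12.1, 11.5, 13.9 and 24.3 CPM in batch 2 (log2 fold change -1.11 ± 0.25, adjusted p = 0.0105). Replicate 4 was the highest of both batches for Cry1 and the lowest of both for Npas2. Arntl itself stood at 15.9, 15.9, 18.9 and 14.7 CPM in batch 1 and at 26.03, 21.8, 20.6 and 13.4 CPM in batch 2 and missed the threshold (log2 fold change 0.32 ± 0.17, adjusted p = 0.189). Nr1d1, the repressor REV-ERB alpha that peaks ahead of the Per genes, belongs to the 12 late-day genes counted above and not to these 7. It was the only 1 of those 12 with a positive fold change, against 11 negative. Nr1d1 stood at 94.3, 95.5, 105 and 48.3 CPM in batch 1 and at 153, 135, 137 and 93.3 CPM in batch 2 (log2 fold change 0.60 ± 0.21, adjusted p = 0.0635), higher in value in batch 2 while its paralog Nr1d2 was lower.

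**Figure D3:**
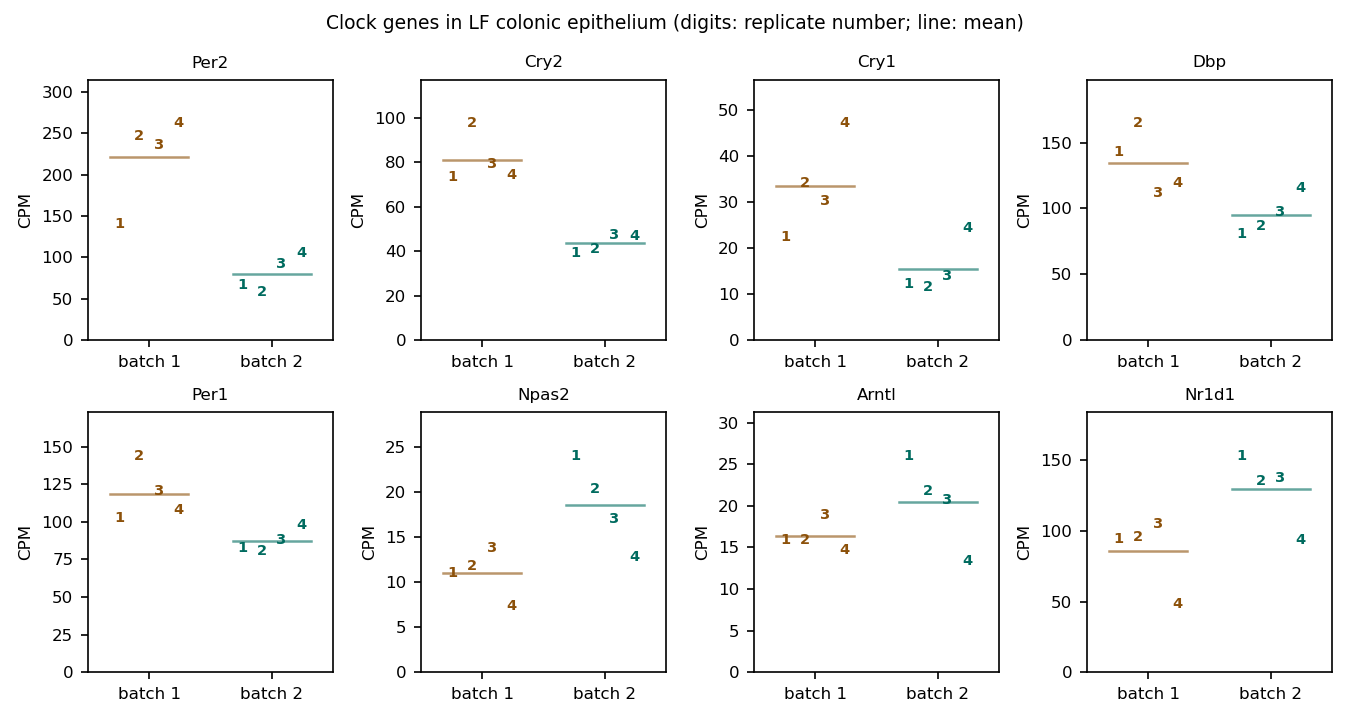
Level (CPM, linear axes from 0) of 8 clock genes in each LF library, 1 panel per gene, with batch 1 left and batch 2 right. Each digit is the replicate number of a library, and lines are batch means. Per2 and Cry2 separate the batches completely, with batch 2 lower, while Arntl and Nr1d1 overlap between them.

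BMAL1 and its partners bind the E-box CACGTG, and output factors such as Dbp bind the D-box TTANGTAA, so promoters of clock genes (250 bases before to 50 after a RefSeq start, build GRCm38) were searched for both, on both strands. Of 15 tested clock genes with a promoter sequence, 4 held an E-box (Cry1, Per1, Ciart and Tef), and all 4 were called lower in batch 2. Of the other 11, 5 were called lower and 1 higher. Of 11014 genes tested that have such a promoter, 11.4% held an E-box and 1.91% a D-box. Per3 was the 1 clock gene with a D-box, and no clock promoter held both motifs. The promoters of the 3 named genes are shown with the E-box in capitals, because these letters are the known binding motif of the factors that drive the genes. The E-box begins at position -60 from the start in Cry1 (chr10:85185005-85185304, minus strand) and -166 in Per1 (chr11:69098699-69098998, plus strand), and Ciart (chr3:95882179-95882478, minus strand) holds 3. A match to these letters describes the sequence and shows no binding in these samples.
Cry1 promoter: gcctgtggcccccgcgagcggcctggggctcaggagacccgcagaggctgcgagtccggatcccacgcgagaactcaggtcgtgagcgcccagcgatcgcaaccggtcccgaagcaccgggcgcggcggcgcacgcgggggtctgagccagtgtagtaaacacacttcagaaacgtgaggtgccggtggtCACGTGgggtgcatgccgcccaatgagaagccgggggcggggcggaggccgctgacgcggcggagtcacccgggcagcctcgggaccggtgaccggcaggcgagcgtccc
Per1 promoter: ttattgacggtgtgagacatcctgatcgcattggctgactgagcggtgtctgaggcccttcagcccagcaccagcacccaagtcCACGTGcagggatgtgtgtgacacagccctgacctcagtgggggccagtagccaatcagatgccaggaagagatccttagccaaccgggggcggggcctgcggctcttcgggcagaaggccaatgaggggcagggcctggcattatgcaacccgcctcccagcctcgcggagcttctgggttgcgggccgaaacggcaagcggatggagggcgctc
Ciart promoter: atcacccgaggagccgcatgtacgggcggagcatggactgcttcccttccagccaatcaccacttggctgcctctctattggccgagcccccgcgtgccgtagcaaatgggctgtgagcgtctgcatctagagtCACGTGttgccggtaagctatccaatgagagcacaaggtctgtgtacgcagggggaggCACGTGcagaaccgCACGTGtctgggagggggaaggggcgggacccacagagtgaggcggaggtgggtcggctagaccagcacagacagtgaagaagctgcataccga

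Immediate early genes, which rise within minutes of a stimulus such as tissue handling, split in both directions. Of 25 tested, 8 were called higher (32%) and 7 lower (28%), against 9.56% and 10.8% of all genes (median 0.19). Zfp36, which destabilises inflammatory mRNAs, stood at 181, 156, 169 and 159 CPM in batch 1 and at 340.4, 361, 308 and 301 CPM in batch 2 (log2 fold change 0.98 ± 0.08, adjusted p = 0.00016). Cyr61, a matrix protein and YAP target, stood at 32.98, 38.2, 38.5 and 29.9 CPM in batch 1 and at 125, 90.2, 59.6 and 63.3 CPM in batch 2 (log2 fold change 1.28 ± 0.20, adjusted p = 0.00187). Egr1, an early response transcription factor, stood at 215, 244, 267 and 212 CPM in batch 1 and at 397, 357, 336 and 315 CPM in batch 2 (log2 fold change 0.58 ± 0.10, adjusted p = 0.00231). Fos, the AP-1 subunit, stood at 1504, 1517, 1570 and 1476 CPM in batch 1 and at 1909, 2138, 1761 and 1927 CPM in batch 2 (log2 fold change 0.35 ± 0.08, adjusted p = 0.0133). Each of these was higher in every batch 2 library than in any of batch 1. The Fos relative Fosb (-0.73) and the Egr family member Egr3, at 3.07, 6.58, 4.31 and 3.88 CPM in batch 1 and at 2.64, 2.41, 1.89 and 1.76 CPM in batch 2 (log2 fold change -1.03 ± 0.23, adjusted p = 0.00976), were lower, as were the Krüppel-like factors Klf2 (-0.60) and Klf4 (-0.30). Without LF batch 2 replicate 2 the counts were 5 higher and 4 lower, and without LF batch 1 replicate 2, LF batch 2 replicate 3 or LF batch 2 replicate 4 also 4 were lower.

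Heat shock genes gave no common direction. Of 22 tested, 2 were called higher (9.09%) and 4 lower (18.2%), against 9.56% and 10.8% of all genes (median -0.10). Hspa1a and Hspa1b, near-identical inducible HSP70 genes whose reads cannot be split with certainty, varied widely within batches, Hspa1a standing at 45.1, 53.9, 14.7 and 52.1 CPM in batch 1 and at 130, 73.96, 55.2 and 19.1 CPM in batch 2 (log2 fold change 0.75 ± 0.48, adjusted p = 0.291). The called genes were Hspe1, the mitochondrial co-chaperonin (0.57), and Dnajb1, an HSP70 partner (0.54), which were higher, and Chordc1 (-0.64), Dnaja1 (-0.51), Hspa4l (-0.38) and Ahsa2 (-0.32), which were lower. Without LF batch 1 replicate 2 only 1 gene was called lower.

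Genes of ER stress and the ATF4 pathway were mostly not called, but its serine and asparagine synthesis enzymes were higher. Of 19 tested, 4 were called higher (21.1%) and 1, Dnajb9, lower (5.26%), against 9.56% and 10.8% of all genes. Psat1, the transaminase of serine synthesis, stood at 3.13, 2.59, 4.20 and 3.40 CPM in batch 1 and at 7.49, 6.49, 6.10 and 7.27 CPM in batch 2 (log2 fold change 1.03 ± 0.15, adjusted p = 0.0013). Phgdh, the first enzyme of that path, stood at 4.89, 4.06, 6.93 and 5.94 CPM in batch 1 and at 11.5, 10.2, 11.2 and 9.33 CPM in batch 2 (log2 fold change 0.94 ± 0.15, adjusted p = 0.00214). Asns, which makes asparagine, stood at 20.9, 17.9, 22.1 and 26.5 CPM in batch 1 and at 29.8, 34.4, 30.4 and 33.1 CPM in batch 2 (log2 fold change 0.55 ± 0.11, adjusted p = 0.00569). The batches did not overlap for these enzymes, and Pdia6, an ER oxidoreductase, was the fourth gene called higher (0.32). Hspa5, the main ER chaperone BiP, stood at 498, 509, 488 and 841 CPM in batch 1 and at 460.4, 493, 511 and 550.4 CPM in batch 2 (log2 fold change -0.21 ± 0.16, adjusted p = 0.364), with replicate 4 of batch 1 apart from all other libraries.

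Hypoxia genes were lower more often than higher, 9 (31%) against 2 (6.9%) of 29 tested (median -0.17). Of all genes 10.8% were called lower and 9.56% higher. Hif1a, the oxygen-regulated transcription factor, stood at 237, 238, 215 and 270.4 CPM in batch 1 and at 115, 159.6, 140.1 and 170 CPM in batch 2 (log2 fold change -0.72 ± 0.12, adjusted p = 0.00207). Vegfa, the vascular growth factor, stood at 118, 128, 133 and 113 CPM in batch 1 and at 104, 85.6, 85.1 and 83.8 CPM in batch 2 (log2 fold change -0.45 ± 0.09, adjusted p = 0.00472). Bnip3, which marks mitochondria for removal, stood at 33.6, 35.6, 18.2 and 30.4 CPM in batch 1 and at 11.98, 17.1, 12.7 and 21.6 CPM in batch 2 (log2 fold change -0.89 ± 0.22, adjusted p = 0.0149). Hif1a and Vegfa were lower in every batch 2 library, while Bnip3 overlapped through replicate 3 of batch 1 and replicate 4 of batch 2. Without the former its log2 fold change was -1.06 (edgeR, adjusted p = 0.00191), and without both -1.25. P4ha1, a collagen hydroxylase (-0.51), was lower with a call lost when any of 5 libraries was left out. Car9, the carbonic anhydrase often used as a hypoxia marker, moved the other way, at 77.9, 67.5, 75.3 and 65.7 CPM in batch 1 and at 86.9, 79.5, 89.5 and 92.1 CPM in batch 2 (log2 fold change 0.28 ± 0.08, adjusted p = 0.0242), with a call lost when any of 4 libraries was left out, as did Hilpda, a lipid droplet protein (0.49). Ldha, lactate dehydrogenase A, stood at 1085, 1096, 799.9 and 1124 CPM in batch 1 and at 774, 931, 867 and 1066 CPM in batch 2 (log2 fold change -0.17 ± 0.13, adjusted p = 0.348). Without LF batch 1 replicate 2 the counts were 5 lower and none higher, without LF batch 2 replicate 3 they were 5 and 1, and without LF batch 2 replicate 4 or LF batch 1 replicate 4 the higher count was 0 or 1.

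Targets of glucocorticoids and metallothioneins were lower, 7 of 14 tested (50%, against 10.8% of all genes) and none higher (median -0.33). Fkbp5, a co-chaperone of the glucocorticoid receptor, stood at 148, 183, 185 and 226 CPM in batch 1 and at 121, 94.6, 116 and 154 CPM in batch 2 (log2 fold change -0.61 ± 0.15, adjusted p = 0.0141). Sgk1, a kinase induced by corticosteroids that raises sodium uptake, stood at 284, 271, 339 and 340.1 CPM in batch 1 and at 170.4, 125, 226 and 276 CPM in batch 2 (log2 fold change -0.63 ± 0.20, adjusted p = 0.0382). Mt2, a metal-binding protein, stood at 40.04, 15.8, 14.6 and 25.7 CPM in batch 1 and at 17.3, 12.2, 8.76 and 9.10 CPM in batch 2 (log2 fold change -1.03 ± 0.31, adjusted p = 0.0333). These batches overlapped, and the calls of Sgk1 and Mt2 were lost when any of 6 and 5 of the 8 libraries was left out. Leaving out 1 library at a time gave 3 to 6 genes called lower, 3 without LF batch 2 replicate 3 and 4 without LF batch 1 replicate 2 or LF batch 2 replicate 2. Zbtb16, a strongly glucocorticoid-induced repressor (-0.73), Errfi1 (-0.35) and Tsc22d3, known as GILZ (-0.34), were the others called, beside Per1, which belongs to the clock list too.

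Metabolic and defence lists had calls in both directions, beside the 9.56% higher and 10.8% lower of all genes tested. In sterol and fatty acid synthesis, 3 of 18 genes were called higher and none lower: Fdps and Mvd of the mevalonate path (0.68 and 0.54) and Insig1, its sterol sensor (0.46). Without LF batch 1 replicate 3 or LF batch 2 replicate 1 the count was 6. Of 13 PPAR and fasting genes, Pdk4, which shuts down pyruvate oxidation (-0.62), and the thioesterase Acot2 (-0.47) were lower, with calls lost when any of 4 and 5 libraries was left out. None of 18 interferon-stimulated genes was called. Of 18 xenobiotic and redox genes 3 were called higher and 3 lower, led by Gpx2, a gut glutathione peroxidase, at 127, 68.7, 103 and 106 CPM in batch 1 and at 165, 158, 159.7 and 176 CPM in batch 2 (log2 fold change 0.70 ± 0.14, adjusted p = 0.00602), and Cbr3, a carbonyl reductase, at 30.3, 17.3, 29.9 and 27.4 CPM in batch 1 and at 9.50, 11.1, 12.8 and 15.3 CPM in batch 2 (log2 fold change -1.11 ± 0.18, adjusted p = 0.00223). Leaving out 1 library at a time gave 1 to 3 higher and 1 to 6 lower, the last without LF batch 2 replicate 4. Among 15 antimicrobial genes Reg3b, a lectin that binds bacteria, stood at 10.3, 4.27, 38.9 and 7.80 CPM in batch 1 and at 45.02, 450.2, 63.4 and 27.9 CPM in batch 2 (log2 fold change 3.25 ± 0.91, adjusted p = 0.025). Its log2 fold change was 1.56 and its call was lost without LF batch 2 replicate 2, the library at 450.2 CPM. Saa3 (0.78) was higher, with a call lost when any of 5 libraries was left out, and Nos2, the inducible nitric oxide synthase (-1.44), lower.

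Short and nuclear RNAs without a poly(A) tail included several of the largest falls of the comparison. Rmrp, the RNA of the nuclease that processes ribosomal and mitochondrial RNA, took 1.53%, 1.56%, 1.11% and 1.90% of all counts in batch 1 and 0.679%, 0.580%, 0.619% and 0.601% in batch 2. Small nucleolar RNAs (snoRNAs), guides for the chemical modification of ribosomal RNA, took 0.164%, 0.175%, 0.118% and 0.201% in batch 1 and 0.0701%, 0.0646%, 0.0733% and 0.0665% in batch 2. Neither measure overlapped between batches (2-sided exact permutation test, p = 0.0286 each, 0.0458 adjusted over 8 values). Rpph1, the RNA of the sister enzyme RNase P and of like size, did not follow: it took 1.07%, 0.982%, 0.615% and 1.23% in batch 1 and 1.05%, 1.02%, 0.977% and 0.894% in batch 2 (exact permutation test, p = 0.943). LF batch 1 replicate 3 was the lowest of its batch for all 3 measures.

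Of 76 snoRNAs tested, of 150 listed, 20 were called lower (26.3%) and 6 higher (7.89%), so the fall was not shared by the whole class. Of all genes 10.8% were called lower and 9.56% higher. Snord17 stood at 656, 759, 481 and 866 CPM in batch 1 and at 136, 116, 132 and 118 CPM in batch 2 (log2 fold change -2.46 ± 0.16, adjusted p = 3.67e-05). The sum over the 150 listed snoRNAs was 1174 to 2049 CPM in batch 1 and 639 to 721 CPM in batch 2. Snord17 alone thus made up a large part of the snoRNA share given above and of its fall. Snora23 stood at 99.9, 87.2, 50.6 and 98.6 CPM in batch 1 and at 16.2, 13.4, 14.97 and 18.9 CPM in batch 2 (log2 fold change -2.40 ± 0.19, adjusted p = 0.000156). Snora81 stood at 109, 103, 58.2 and 111 CPM in batch 1 and at 35.6, 27.1, 32.7 and 31.2 CPM in batch 2 (log2 fold change -1.59 ± 0.18, adjusted p = 0.000384), and Snord15b had a log2 fold change of -1.46. Snora78, in the opposite direction, stood at 18.2, 18.4, 12.2 and 17.4 CPM in batch 1 and at 32.9, 30.6, 36.9 and 39.9 CPM in batch 2 (log2 fold change 1.08 ± 0.13, adjusted p = 0.000503). Each lies on the same strand inside a longer gene (Snord17 in Snx5 at chr2:144265982-144266202, Snora23 in Ipo7 at chr7:110046364-110046547, Snora81 in Eif4a2, Snord15b in Rps3, Snora78 in Snhg9; coordinates of build mm10), so part of the reads may belong to the host RNA. The sequences of 3 that fell are given from GENCODE transcripts of GRCm38, with the C box TGATGA and D box CTGA of the box C/D class, or the ACA box near the end of the other class, in capitals. The GENCODE transcript of Snord17, of 238 bases, is longer than the locus given above, which comes from the count data.
Snord17: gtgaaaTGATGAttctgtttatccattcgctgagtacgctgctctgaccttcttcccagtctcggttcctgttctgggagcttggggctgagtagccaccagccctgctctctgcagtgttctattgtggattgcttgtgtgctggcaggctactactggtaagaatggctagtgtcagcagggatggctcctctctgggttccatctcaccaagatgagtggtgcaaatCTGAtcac
Snord15b: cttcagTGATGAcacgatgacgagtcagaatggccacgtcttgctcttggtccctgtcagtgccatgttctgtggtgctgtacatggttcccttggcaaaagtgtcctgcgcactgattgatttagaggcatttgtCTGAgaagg
Snora23: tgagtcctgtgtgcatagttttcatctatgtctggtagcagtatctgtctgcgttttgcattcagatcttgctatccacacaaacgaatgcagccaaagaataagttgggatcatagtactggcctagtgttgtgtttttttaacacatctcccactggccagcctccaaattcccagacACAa

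Several named long nuclear RNAs fell too. Malat1, an abundant RNA of nuclear speckles, stood at 14840, 18080, 18250 and 15090 CPM in batch 1 and at 9045, 6924, 7555 and 6032 CPM in batch 2 (log2 fold change -1.17 ± 0.14, adjusted p = 0.000508), and Neat1, the scaffold of paraspeckles (-0.71), and Kcnq1ot1, an imprinted antisense RNA (-1.07), were lower as well. Of 12 RNAs on this list 6 were called lower and 1, Snhg12, higher (median -0.70). Long noncoding RNAs as a class were close to the background. Of 474 loci 57 were called lower (12%) and 39 higher (8.23%), against 10.8% and 9.56% of all genes, with a median of 0.01. The higher count was 20 without LF batch 1 replicate 2 and 24 without LF batch 2 replicate 2. Of 125 microRNA loci 37 were called lower (29.6%) and 2 higher (1.6%), with a median of -0.58. These libraries were not made to capture mature microRNAs, and Mir6516, at 39.6, 38.02, 27.5 and 47.2 CPM in batch 1 and at 7.77, 10.1, 10.1 and 12.2 CPM in batch 2 (log2 fold change -1.92 ± 0.17, adjusted p = 0.000165), lies within 2810008D09Rik on the same strand. These lists of RNA classes were drawn up after values had been seen. The male-specific Uty and Ddx3y, of the Y chromosome, were lower by small and even amounts, Uty at 100.3, 104, 97.6 and 98.8 CPM in batch 1 and at 74.4, 70.7, 71.95 and 74 CPM in batch 2 (log2 fold change -0.46 ± 0.06, adjusted p = 0.000628).

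The largest falls among other genes included Fam71a, a protein of little known function, at 9.56, 15.3, 15.02 and 10.2 CPM in batch 1 and at 2.40, 1.19, 1.36 and 0.940 CPM in batch 2 (log2 fold change -3.11 ± 0.27, adjusted p = 0.00016). Ugt1a5 (-1.65) and Ugt1a6b (-1.48), glucuronidation enzymes that share exons with 7 other Ugt1a loci, were also lower, and their counts are uncertain for that reason. Krt36, a keratin, had a log2 fold change of -1.53. At the other end, 8430408G22Rik, known as Depp1, stood at 4.67, 4.69, 3.87 and 2.83 CPM in batch 1 and at 26.3, 14.01, 11.1 and 14.9 CPM in batch 2 (log2 fold change 2.05 ± 0.26, adjusted p = 0.000568).

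Fold change also followed transcript length. When the 13208 protein-coding genes with a length (99.8% of those tested) were ranked into 5 equal groups, the median log2 fold change fell from 0.14 in the shortest, of median length 1438 bases, through 0.06, 0.01 and -0.05 to -0.10 in the longest, of median length 6801 bases. In the shortest group 18.9% of genes were called higher and 3.93% lower, and in the longest 3.67% higher and 17.3% lower. Ribosomal protein genes, which are short, had 18 of 86 called higher (20.9%) and 1 lower (1.16%), with a median of 0.30. Of all genes 9.56% were called higher and 10.8% lower, and the higher share was near the 18.9% of the shortest group. Between 7 and 38 ribosomal protein genes were called higher when 1 library was left out, the lowest without LF batch 1 replicate 2. Subtracting the median of each gene's own length group left the G2/M list at 0.96, the S phase list at 0.52, lymphocyte genes at -0.80, the late-day clock genes at -0.57 and the ribosomal protein genes at 0.17. It moved the goblet cell list from 0.16 to 0.03, the absorptive colonocyte list from -0.15 to -0.28 and the PPAR and fasting list from -0.08 to -0.18. The part of length in the single genes above was not tested.

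**Figure D4:**
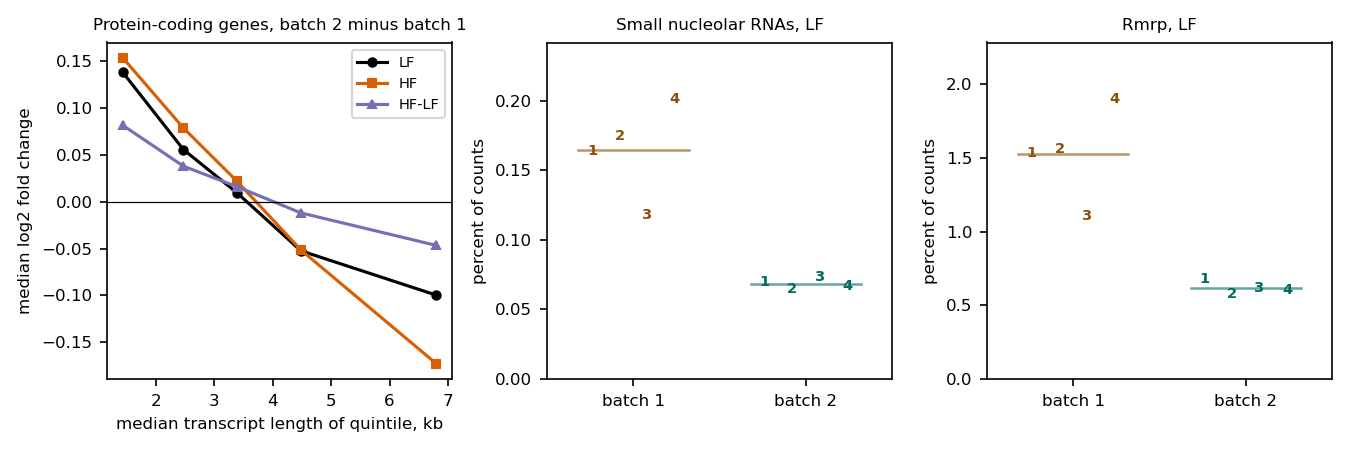
Left, median log2 fold change of batch 2 against batch 1 (linear axis) in 5 length groups of protein-coding genes, plotted at the median length of each group (kb), with 1 line per diet. Middle and right, percentage of all counts on snoRNAs and on Rmrp in each LF library, with the replicate number as the symbol and batch means as lines. The LF line falls from 0.14 to -0.10, and both RNA measures are lower in all 4 batch 2 libraries.

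Libraries of batch 2 were also more alike. The biological coefficient of variation within batch was 0.134 in batch 1 and 0.100 in batch 2, and 70.3% of 9762 well-expressed genes had the larger standard deviation in batch 1. These values for batch 1 were 0.118 and 59.2% without its replicate 3. Pearson correlations of log2 CPM across these genes, which are not independent replicates, ranged from 0.980 to 0.989 within batch 1 and from 0.986 to 0.995 within batch 2.

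The same batches existed for the HF and HF-LF diets, whose libraries share no sample with the LF comparison, so the LF genes could be followed there. Of the 1343 genes higher in LF batch 2, 93% had the same direction in HF and 94.3% in HF-LF, and of the 1514 lower genes 94.8% and 92.7%, against 76.2% and 74% over all genes tested in both. In HF, with 3 libraries per batch, 96 genes were called higher (0.676%) and 188 lower (1.32%), of which 87 and 175 were LF calls of the same direction. These make up 90.6% and 93.1% of the HF calls, and 6.48% and 11.6% of the LF calls. The HF counts rest on few libraries: leaving out any of 4 of the 6 took the higher count to 0, leaving out HF batch 1 replicate 3 gave 432 higher and 632 lower, and DESeq2 gave 573 and 891. A missing call in HF does not show that a gene did not differ. In HF-LF 733 genes were called higher (5.19%) and 1068 lower (7.56%). The shared calls numbered 401 and 618, or 54.7% and 57.9% of the HF-LF calls and 29.9% and 41.1% of the LF calls, and 1 gene was called in opposite directions. In all 3 diets together 65 genes were called higher and 149 lower.

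The difference between diets was tested itself, as the LF batch effect against the mean of the other 2. Of 14725 genes, edgeR called none, with 959 at an unadjusted p under 0.05 and a smallest adjusted p of 0.729. DESeq2 called none either, with 1004 at an unadjusted p under 0.05. On simulated counts of this design edgeR called 53 of 100 genes changed 1.5-fold and 94 of 100 changed 2-fold. A missing call here does not show that a gene behaved alike on all diets. Values that differ in size between diets below are therefore given side by side, with no difference shown for any single gene.

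Some short RNAs were lower in all 3 diets. Snord17 had log2 fold changes of -2.46 in LF, -2.37 in HF and -2.22 in HF-LF, and Rmrp of -1.34, -1.46 and -1.48, all called. Fam71a (-2.93 and -2.34) and Zfp36 (1.19 and 1.33) were called in HF and HF-LF as well, as were Slc26a3 (-0.76 and -0.69), Pyy (1.00 and 0.62) and Cry1 (-0.75 and -0.90). Among the 5 largest rises called in every diet were S100a11, a calcium-binding protein (1.15, 0.84 and 0.84), and Resp18, a protein of endocrine granules (1.13, 1.01 and 0.98). Among the 5 largest falls was Mmrn1, a carrier of clotting factor V (-2.02, -2.93 and -1.82), at under 3 CPM in every LF library.

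Of 20 G2/M genes 3 were called higher in HF and 1 in HF-LF, where 0.676% and 5.19% of all genes were called higher (medians 0.37 and 0.37), of 20 S phase genes none and 6 (medians 0.01 and 0.48), and of 57 histones 2 and 24, with 1 called lower in HF-LF (medians 0.40 and 0.53). Ccnb1 had log2 fold changes of 0.57 (adjusted p = 0.207) in HF and 0.35 (adjusted p = 0.363) in HF-LF, against 1.29 in LF. The counts of the lists in the 3 diets come with different numbers of libraries, and whether the lists differ between diets was not tested.

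Of the late-day clock genes, 6 of 13 tested were called lower in HF-LF, with 1 higher, and none of 14 was called lower in HF (medians -0.38 and -0.07). Of all genes tested, 5.19% were called higher and 7.56% lower in HF-LF, and 0.676% and 1.32% in HF. Per2 had log2 fold changes of -0.73 (adjusted p = 0.146) and -0.80 (adjusted p = 0.0101) in HF and HF-LF, and Ciart of 0.23 (adjusted p = 0.537) and -0.33 (adjusted p = 0.067). Immediate early genes moved one way in HF-LF, where 12 of 25 were called higher and none lower, and in HF 1 was called. Hypoxia genes had no call in HF (median 0.12) and 5 lower in HF-LF. Hif1a stood at -0.79 (adjusted p = 0.132) and -0.70 (adjusted p = 0.00612), while Bnip3 stood at 0.52 (adjusted p = 0.336) and -0.26 (adjusted p = 0.0833). Lymphocyte genes had no call in HF (median -0.54) and 1 higher in HF-LF (median 0.11), Ptprc standing at -0.45 (adjusted p = 0.234) and 0.07 (adjusted p = 0.751).

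**Figure D5:**
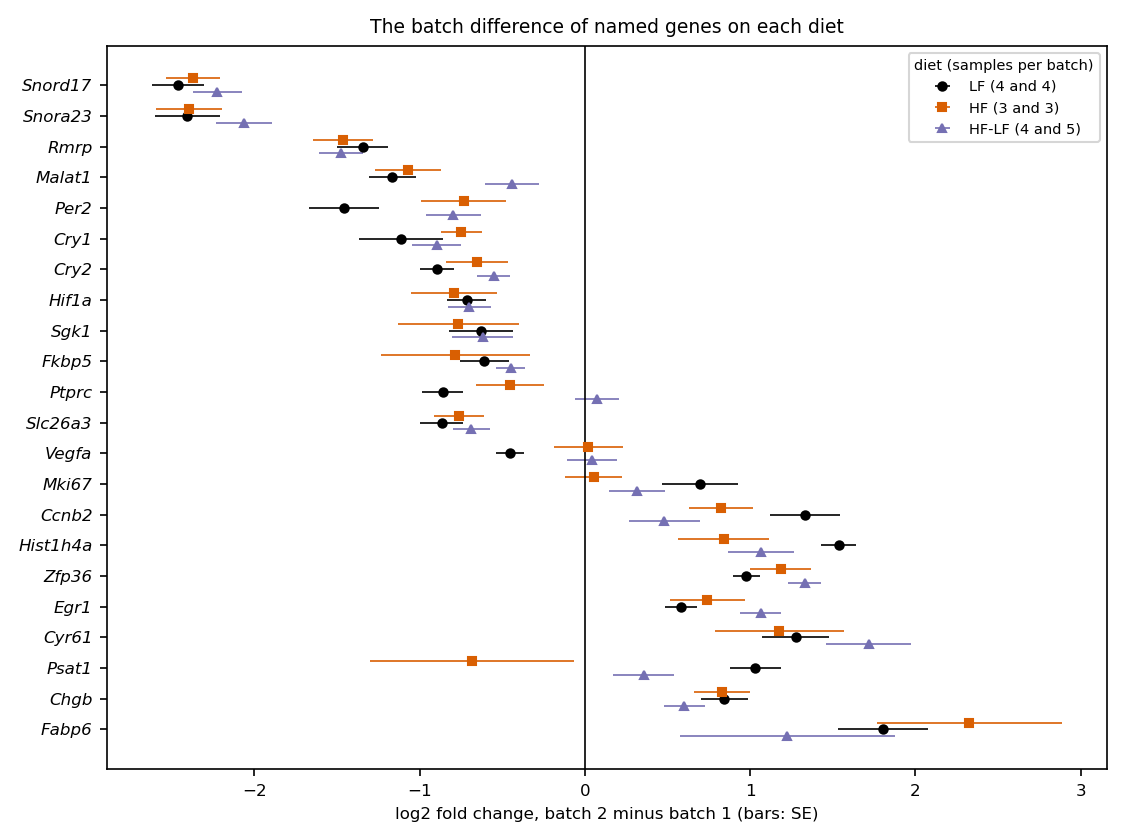
Log2 fold change of batch 2 against batch 1, with its SE as bars, for 22 named genes in LF, HF and HF-LF, on a linear axis with a line at 0. Snord17, Snora23 and Rmrp lie at like negative values in the 3 diets, while Mki67, Ccnb2 and Hist1h4a have larger values in LF than in the other diets, a difference that passed the test for none of them.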

How the data were processed

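Ribosomal RNA-depleted, stranded total RNA libraries of mouse colonic epithelium were sequenced, and 8 LF libraries of 23 were compared. Per the labels and methods, the authors trimmed reads with cutadapt 1.2.1, aligned them to mm10 with STAR 2.5 and counted them with featureCounts 1.5.0-p1 (tool versions from the submitters' processing notes), and deposited raw read counts for 24917 gene loci. The annotation and the strand setting of the counting are not given in the sources used here. Of these loci 5935 had no count in the LF libraries, and 369 symbols stood at more than 1 locus (0.0251% of LF counts). LF libraries held 29.2 M to 44.1 M counts (M, 1000000) and the others 31.8 M to 65.3 M.

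Counts were tested with edgeR 4.0.16 in R 4.3.3 (TMM scaling, low-count filter by filterByExpr, quasi-likelihood test, batch as the only term, Benjamini-Hochberg adjustment over all genes tested), each diet in a fit of its own, and the difference between diets in 1 fit of all 23 samples. A gene was called at an adjusted p under 0.05 and a fold over 1.2, the thresholds of the study's own analysis. Single values per library were compared by exact permutation. On simulated counts of the LF design with 14052 genes, 89 of 100 genes changed 1.5-fold and 100 of 100 changed 2-fold were called, with 10 unchanged genes called. The HF design gave 42 and 93 of 100, with 15 unchanged genes called. No pair of LF libraries had counts that agreed within sampling noise.

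Genes named were the 10 largest rises and falls among called genes at 5 CPM or more in 1 batch that did not overlap between batches, up to 3 called genes of each list by fold, a fixed set of markers, and the 5 largest rises and falls called in all 3 diets. Other genes named were chosen after their values were seen. Members and lists were chosen with earlier results of these data known, so their counts are descriptions. Muc3, Sh2d6, Tcrg-C1 and Rn7sk of the lists were not analysed here. Alternatives were DESeq2 1.42.0, limma 3.58.1 voom, other scalings, no filter, a replicate block, 1 fit of all samples, leaving out each library, and, added after seeing the data, protein-coding genes only, leaving out LF batch 1 replicate 3 with LF batch 2 replicate 4, and subtraction of the length group median. Single members of the clock and S phase lists are counted but not reported here by name.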

Additional observations from a re-analysis of the deposited data

Results flagged for a closer look

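Values of single libraries were marked where the highest or lowest of a batch of 4 stood apart from the other 3 by Dixon's 95% criterion. This marks about 1 in 20 groups by chance, and 23 of 318 groups of LF values (7.23%) were marked, 9 of them through LF batch 1 replicate 3.

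LF batch 1 replicate 3 stood high in its batch for cell cycle, stem cell and stromal values. Mki67 was at 227.9 CPM against 99.4 to 111 CPM in the others, Hist1h2bl at 10.0 CPM and Lgr5 at 20.4 CPM. The summed G2/M list was at 687 CPM, the fibroblast list at 39.4 CPM and the goblet cell list at 35019 CPM. It stood low for Snora81 at 58.2 CPM, Snora78 at 12.2 CPM and Ldha at 799.9 CPM.

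LF batch 1 replicate 4 stood high for Hspa5 at 841 CPM and the summed ER stress and ATF4 list at 3583 CPM, and low for Mvd at 24.4 CPM. LF batch 1 replicate 2 stood low for Krt20 at 614 CPM and for total counts at 29.2 M (M, 1000000). LF batch 1 replicate 1 stood low for Chga at 57.4 CPM and high for the summed microRNA loci at 593 CPM.

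In batch 2, replicate 4 stood high for the summed MHC class II list at 169 CPM, the summed interferon list at 558 CPM and Pbk at 15.5 CPM. LF batch 2 replicate 2 stood high for Reg3b at 450.2 CPM and low for Gcg at 24.03 CPM. LF batch 2 replicate 3 stood high for the summed goblet cell list at 43038 CPM, and replicate 1 for Vegfa at 104 CPM.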

How the results depend on the processing

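In the LF comparison DESeq2 called 1542 genes higher and 1627 lower and limma voom 1621 and 1698. Counts with 1 library left out ranged from 773 to 1495 higher and from 1005 to 1561 lower. A fold over 1.5 left 424 and 473 and over 2 left 103 and 171. Of 108 genes named, 96 were called, 60 of them under every alternative apart from the fold thresholds, and 29 lost the call when some library was left out. HF gave 573 and 891 by DESeq2, 830 and 1093 by voom, 871 and 1085 in 1 fit of all samples, 95 lower by library totals, and 0 to 432 higher and 0 to 632 lower with 1 library left out. HF-LF gave 314 to 1032 higher and 590 to 1348 lower with 1 left out. The cause of these shifts was not tested.

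Replicate numbers are shared between batches. The correlations of same-numbered LF samples were -0.48, 0.10, 0.35 and 0.35, and not every sample correlated best with its own number. These correlations show no pairing by number, but cannot decide whether same-numbered libraries share an animal. With the number as a replicate block the counts were 1406 higher and 1484 lower in LF, 2 and 15 in HF and 70 and 116 in HF-LF.

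Median log2 fold changes turned direction for endothelium (-0.1175 without the low-count filter, -0.02719 to 0.2854 with libraries left out), enteric neurons and glia (-0.1341) and adipocytes (0.006437, both without the filter). With libraries left out, the values of 3 genes that were not called crossed 0: Epcam from -0.05035 to 0.1297, Hspa5 from -0.3309 to 0.01694, and Car1 from -0.1631 to 0.102. Car1 stood at 0.0006082 by library totals and 0.04726 by voom.

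With 1 library left out, the batch difference in the Rmrp share ranged from -1.044 to -0.7793 percentage points and that in the snoRNA share from -0.1115 to -0.08362, and both missed the threshold without any 1 batch 2 library (exact permutation test, p = 0.0571). The difference in total counts ranged from 2.148 M to 6.303 M (M, 1000000), and passed without LF batch 2 replicate 1 (exact p = 0.0286). That in the Rpph1 share ranged from -0.108 to 0.0954 and that in genes with a count from -68.42 to 66.92.

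The batch difference cannot be told apart from whatever else differed between the batches, and the lowest genes, such as those of lymphocytes, are measured with the fewest counts.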
